A study of Rattus norvegicus with 10 samples.

Results

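PPAR-alpha and 8 of its liver target genes were followed in the livers of 10 Wistar/ST rats. The members were the probe sets, groups of short oligonucleotides on an Affymetrix array, whose platform annotation gives exactly 1 gene symbol and it is Ppara, Cyp4a1, Angptl4, Pdk4, Fabp1, Acot1, Cd36, Plin2 or Vnn1. This gave 11 probe sets for 9 genes, out of 31042 probe sets that were not array controls, and all 11 passed the filter on dim probe sets. Another 2 probe sets carry a member's symbol together with a relative's and were left out. The mulberry group was 5 rats that received dried mulberry leaf powder in a daily dose of 500 mg per kg of body weight. The powder was given in carboxymethylcellulose by gastric probe, after an overnight fast. The control group was 5 rats at a dose of 0, and the labels give 0.5% carboxymethylcellulose for both groups. All 10 rats ate a high-fat diet, and the livers were taken after 7 weeks. Every array was hybridised with liver RNA of a single animal, and the error terms here therefore hold differences between rats as well as between arrays.

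PPAR-alpha is a nuclear receptor that fatty acids activate. Paired with a retinoid X receptor, it binds direct repeats of a short half-site spaced by a single base and raises the transcription of genes for fatty acid binding, uptake, oxidation and storage. In rodent liver it is best known for the response to fasting, to fat-rich food and to fibrate drugs. The comparison asks whether the leaf powder altered this programme in livers already exposed to a high-fat diet.

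The binding element can be read in the promoter of Fabp1, the gene of the main cytosolic fatty acid binding protein of hepatocytes and a classical PPAR-alpha target. The stretch is shown because, of the 7 members with a promoter window in the RefSeq table for the rat assembly GRCr8 (250 bases before to 50 after the start of each gene), it was the 1 that held, on either strand, the letters AGGNCA repeated in the same direction with any 1 base between. The start is that of the table, and the RefSeq gene record itself begins further upstream. The match lies at -77 to -65 from the start, on the strand opposite to the gene, and reads as given in the second of the lines here. Capitals mark that match and a TATA box (TATAAA).
Fabp1, chr4:104749220-104749339, GRCr8, plus strand: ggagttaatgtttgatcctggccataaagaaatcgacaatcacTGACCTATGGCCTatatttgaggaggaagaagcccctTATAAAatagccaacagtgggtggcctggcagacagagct
Fabp1 direct repeat, chr4:104749263-104749275, GRCr8, minus strand: AGGCCATAGGTCA

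Among all 33469 promoter windows of this length, 0.415% held this repeat of AGGNCA. The stricter repeat of AGGTCA, spaced alike, was present in 0.0538% of windows and in 0 of the 7 members. A single half-site, AGGTCA, which is part of the stricter repeat and need not be in the looser one, was present in 16.2% of windows and among the members in Fabp1. TATAAA was present in 14.2% of windows, and in those of Angptl4, Cd36 and Fabp1. These are matches of letters in a short window and say nothing of distant elements.

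None of the 11 probe sets passed the test between mulberry and control rats. With limma, and p-values adjusted by Benjamini-Hochberg across the 18625 tested probe sets, 0 of the 11 passed an adjusted p of 0.05, against 0% of all probe sets, and each had an adjusted p of 0.9999. At an unadjusted p under 0.05 there were 0 of 11, against 1.74% of all. The mulberry and control groups overlapped for every member, where 0.344% of all probe sets had groups without overlap. The mean was higher in mulberry rats for 4 of 11 probe sets, against 52.5% of all. Levels are linear intensities. A difference is the mulberry mean less the control mean of log2(intensity + 16), a scale that understates the change of dim probe sets, and has the model's standard error (SE) and a 95% confidence interval beside it. In whole liver, fewer cells of a type and less RNA per cell cannot be told apart.

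**Figure D1:**
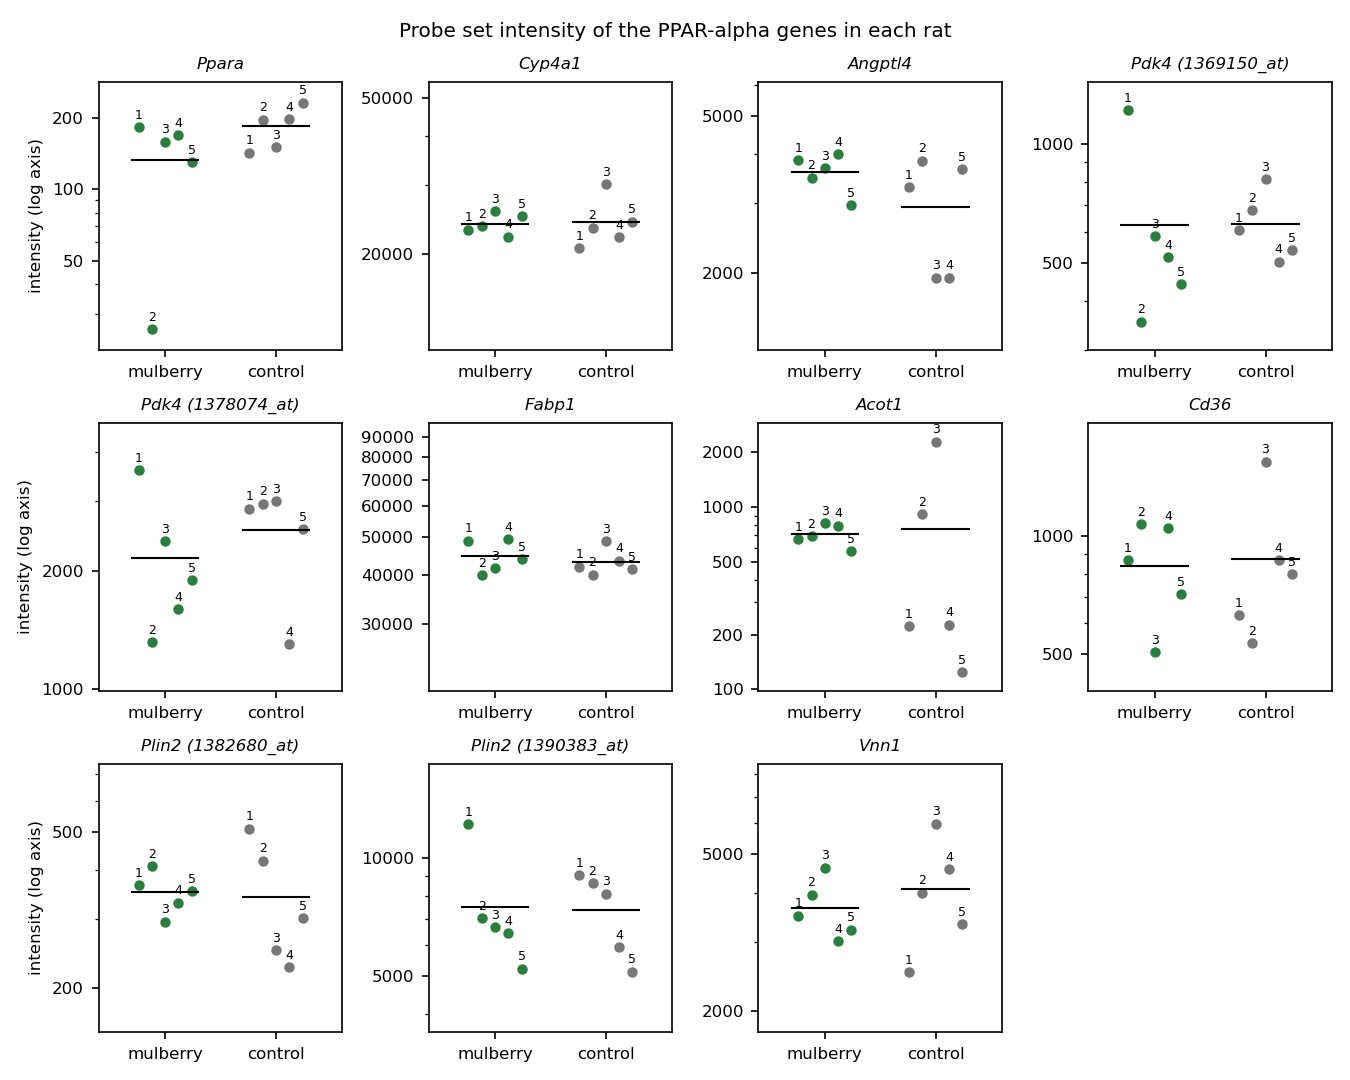
Intensity (log axis) of each of the 11 probe sets in the 5 mulberry (green) and 5 control (grey) rats. Each point is 1 rat with its number, and the line is the group mean; the groups overlap in every panel, and Ppara in mulberry rat 2 lies at 25.8.

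Of the members, the receptor gene had the widest spread in the mulberry group. Ppara had intensities of 183, 25.8, 159, 169 and 130 in mulberry rats 1 to 5, against 143, 197, 151, 198 and 232 in control rats 1 to 5. Mulberry rat 2 stood far below every other rat, and the other 4 mulberry rats lay between 130 and 183, a range that overlaps the control rats. The difference was -0.59 ± 0.36 (SE; interval -1.37 to 0.20, unadjusted p = 0.132 in limma's fit across all probe sets), and without mulberry rat 2 it was -0.17. The value of 25.8 was under the intensity of 61.1 that the filter asked of a probe set's mean over the 10 arrays.

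The targets had mixed ranks in that rat. With rank 1 as the highest of 10 rats, mulberry rat 2 ranked 10 for Ppara and for Fabp1 and 9 for Pdk4, but 2 for Cd36, 6 for Angptl4 and 5 for Cyp4a1, Acot1, Plin2 and Vnn1. Over the 10 rats, the Pearson correlation of Ppara with its 8 targets ranged from -0.28 with Cd36 to 0.48 with Pdk4. The value for Pdk4 was -0.00 without mulberry rat 2, and -0.08 without that rat and control rat 5. Of these 8 pairs, 0 passed an adjusted permutation p of 0.05 over the 36 pairs of members. The genes whose log2 values were most like those of Ppara over the 10 rats were Gpt (r = 0.923), Col1a1 (r = 0.920) and Dpp8 (r = 0.913), picked as the highest of all genes tested. These likenesses rested on mulberry rat 2, since leaving out 1 rat brought them down to 0.39, 0.14 and 0.16.

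Fatty acid binding and uptake were represented by Fabp1 and by Cd36, a membrane scavenger receptor that binds long-chain fatty acids. Fabp1 had intensities of 48981, 40056, 41612, 49485 and 43908 in mulberry rats 1 to 5, against 42035, 40125, 48817, 43554 and 41417 in control rats 1 to 5. The 3 high rats, mulberry rats 1 and 4 and control rat 3, came from both groups, and the other 7 lay within a narrow band. The difference was 0.051 ± 0.08 (SE), and the interval of -0.12 to 0.22 corresponds to 0.920 to 1.17 times the control level.

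Fabp1 lay at the top of the intensity scale, where it was the brightest probe set of all on 5 of the 10 arrays. The same 3 rats had the highest summed intensity of 9 hepatocyte markers, with 287733 and 293745 in mulberry rats 1 and 4 and 279918 in control rat 3, against 241416 to 250879 in the other rats. Their arrays also had the highest mean intensity, 839, 835 and 847 in the same order, against 792 to 824 in the others. The part of array brightness in the Fabp1 values was not tested. The genes most like Fabp1 over the 10 rats were Serpina3l (r = 0.992), Apoh (r = 0.990) and Apoc3 (r = 0.986), all genes of secreted liver proteins. After quantile normalization, which gives all arrays 1 common distribution, the SD of Fabp1 over the 10 rats was 0.028 on the log2 scale, against 0.120 for the deposited values, and the difference was -0.011. A probe set at the top of the scale comes out nearly equal on all arrays by this method, so the small SD was set by it.

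Cd36 had intensities of 868, 1073, 506, 1047 and 711 in mulberry rats 1 to 5, against 628, 534, 1548, 870 and 801 in control rats 1 to 5. Control rat 3 was the highest and mulberry rat 3 the lowest of the 10. The group means were 841 ± 238 in mulberry and 876 ± 399 in control rats (SD, n = 5 each). The difference of -0.0093 ± 0.27 (SE; interval -0.59 to 0.57) turned to 0.22 without control rat 3 and to 0.16 without mulberry rat 3. Cd36 is also expressed by macrophages, endothelium and fat cells. The summed intensity of 7 macrophage markers ranged from 8935 to 21103 in mulberry and from 15112 to 22142 in control rats, and that of 7 endothelial markers from 8943 to 10841 in mulberry and from 8250 to 10427 in control rats. Of the 7 adipocyte markers on the array, Adipoq, Lep, Plin1 and Fabp4 were under the filter, and Cfd, Lipe and Cidea passed it. Mean intensities were 429 in mulberry and 365 in control rats for Cfd, 286 and 405 for Lipe, and 841 and 802 for Cidea. The sum of all 7 ranged from 1601 to 1808 in mulberry and from 1301 to 2338 in control rats. It was highest in control rat 3, and mulberry rats 2 and 3 had 1601 and 1606. Mulberry rat 3, the lowest for Cd36, also had the lowest macrophage sum. Mulberry rat 2, ranked 2 for Cd36, had a sum of 12477, and control rat 3, the highest for Cd36, had 16985. Lyz2, which is part of the sum, ranged from 1211 in mulberry rat 3 to 11302 in control rat 4. Control rat 3 was the highest of the 10 for Clec4f, Adgre1, Csf1r and Cd14, but not for Cd68, Cd163 and Lyz2. Of the 7 macrophage markers, 0 passed limma's adjusted test, and 2 were under 0.05 unadjusted, against 1.79% of all genes. They were Cd68 at 0.39 ± 0.18 (unadjusted p = 0.0454 in limma's fit across all probe sets) and Cd14 at -0.38 ± 0.14 (unadjusted p = 0.0223). The other 5 lay between -0.96 for Lyz2 and 0.15 for Clec4f. The part of these cells in the Cd36 signal was not tested. The genes most like Cd36 were Haus4 (r = 0.964), Clec4a3 (r = 0.963) and Sdhd (r = 0.955).

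Cyp4a1 and Acot1 act on fatty acids and their CoA esters: Cyp4a1 is a microsomal cytochrome P450 that hydroxylates the omega end of fatty acids, and Acot1 is a cytosolic thioesterase that splits acyl-CoA into free fatty acid and CoA. Cyp4a1 was steady, with intensities of 23061, 23553, 25715, 22150 and 24922 in mulberry rats 1 to 5, against 20723, 23353, 30147, 22089 and 24154 in control rats 1 to 5. Every mulberry rat lay between the lowest and the highest control rat. The difference was -0.0027 ± 0.096 (SE), with an interval of 0.865 to 1.15 times the control level. Its nearest genes were Trappc4 (r = 0.924), Chchd6 (r = 0.892) and Frat2 (r = 0.886).

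Acot1 varied more between animals than any other member, and did so in the control group. It had intensities of 668, 693, 821, 794 and 574 in mulberry rats 1 to 5, against 223, 919, 2295, 227 and 124 in control rats 1 to 5. All 5 mulberry rats lay inside a gap that separated control rats 1, 4 and 5, at 124 to 227, from control rats 2 and 3, at 919 and 2295. The highest rat was 1.43 times the lowest in the mulberry group and 18.5 times the lowest in the control group. The group means were close, with 710 ± 99.8 in mulberry and 758 ± 916 in control rats (SD, n = 5 each), whereas the log2 difference was 0.69 ± 0.60 (SE; interval -0.60 to 1.99). It ranged from 0.28 without control rat 5 to 1.29 without control rat 3 (unadjusted p = 0.00905, adjusted p = 0.9999, in limma's fit across all probe sets). Its nearest genes were Pxk (r = 0.930), Nsg1 (r = 0.923) and Islr (r = 0.905).

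Acot2, Acot3 and Acot4, relatives of Acot1, all correlated positively with it across animals. Of these, Acot2 and Acot4 passed an adjusted p of 0.05 for Pearson r. In GRCr8 the genes Acot1 to Acot6 lie near each other on chromosome 6, with 0 coding genes between Acot1 and Acot2 and 1 between Acot1 and Acot4. Acot2, the mitochondrial form, had intensities of 2870, 2374, 2450, 2548 and 1901 in mulberry rats 1 to 5, against 2201, 2825, 3910, 1847 and 1786 in control rats 1 to 5. Acot4, a peroxisomal form, had 4010, 2772, 2477, 3945 and 2527 in mulberry rats 1 to 5, against 2450, 3332, 4585, 2228 and 2047 in control rats 1 to 5. As for Acot1, control rats 2 and 3 were the highest control rats and control rats 4 and 5 were low, over a smaller range.

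Over the 10 rats, Acot1 correlated with Acot2 at Pearson r = 0.87 (permutation p = 0.0017, adjusted p = 0.0391 over 23 pairs of a member with a relative) and Spearman rho = 0.83 (permutation p = 0.00441, adjusted p = 0.101). With Acot4 it correlated at r = 0.81 (permutation p = 0.00366, adjusted p = 0.0421) and rho = 0.76 (permutation p = 0.0149, adjusted p = 0.102). Without control rats 3 and 5, the rats farthest from the median of Acot1, r was 0.68 with Acot2 (exact permutation p = 0.0598) and 0.61 with Acot4 (exact permutation p = 0.0978). The sign held without any single rat, but the adjusted p was 0.201 for both without control rat 3. It was also above 0.05 for both without control rat 4 or 5 or mulberry rat 2 or 4 (0.0589 to 0.125), and for Acot4 without control rat 2 or mulberry rat 5. For Acot3 r was 0.66 (permutation p = 0.0366, adjusted p = 0.211) and rho 0.75 (permutation p = 0.0177, adjusted p = 0.102). Without control rats 3 and 5, r for Acot3 was 0.64 (exact permutation p = 0.0793). By Spearman rho, 0 of the 23 pairs passed an adjusted permutation p of 0.05, so rho did not set Acot2 and Acot4 apart from Acot3. These pairs were tested after the values were seen. The genes share sequence, and the part of cross-hybridisation between their probe sets was not tested.

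Between mulberry and control rats, the difference was 0.00 ± 0.20 for Acot2, 0.01 ± 0.18 for Acot3 and 0.14 ± 0.22 for Acot4 (log2, SE). Leaving out 1 rat at a time turned the sign for Acot2 and Acot3 and gave 0.024 to 0.31 for Acot4. The correlations of Cyp4a1 with its tested relatives were all between -0.05 for Cyp4a8 and 0.06 for Cyp4a3, with adjusted permutation p of 0.984. Without control rats 1 and 3 they were -0.62 for Cyp4a3, -0.52 for Cyp4b1, -0.49 for Cyp4a8 and -0.34 for Cyp4f1 (exact permutation p of 0.102 to 0.401). Cd36 and Scarb2, a lysosomal membrane protein of the same family, had r = 0.76 (permutation p = 0.012, adjusted p = 0.0924) and rho = 0.78 (permutation p = 0.0104, adjusted p = 0.102), and r = 0.41 without control rat 3 and mulberry rat 3.

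The storage and lipoprotein genes were Plin2, a coat protein of lipid droplets, and Angptl4, a secreted inhibitor of lipoprotein lipase. The brighter Plin2 probe set (1390383_at) had intensities of 12199, 7036, 6683, 6437 and 5232 in mulberry rats 1 to 5, against 9054, 8638, 8113, 5926 and 5140 in control rats 1 to 5. Mulberry rat 1 was the highest of all, and the other 4 mulberry rats lay inside the control range. The difference was -0.00013 ± 0.21 (SE; interval -0.46 to 0.46), or -0.19 without mulberry rat 1 and 0.11 without mulberry rat 5. The dimmer probe set (1382680_at) lay between 295 and 408 in mulberry rats and between 226 and 509 in control rats, with a difference of 0.092 ± 0.20. The pair followed each other weakly over the 10 rats (r = 0.42, permutation p = 0.224; rho = 0.55, permutation p = 0.105), with r = 0.23 without control rats 1 and 4. The genes most like the brighter one were Jcad (r = 0.942), Litaf (r = 0.930) and Abcb4 (r = 0.928).

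Angptl4 had the smallest unadjusted p of the members. Its intensities were 3870, 3486, 3685, 4002 and 2967 in mulberry rats 1 to 5, against 3299, 3853, 1940, 1941 and 3660 in control rats 1 to 5. Control rats 3 and 4 were far lower than the other 8 rats, and the other 3 control rats lay among the mulberry rats. The means were 3602 ± 405 in mulberry and 2939 ± 933 in control rats (SD, n = 5 each). The difference of 0.35 ± 0.20 (SE; interval -0.08 to 0.77) had an unadjusted limma p of 0.1, and was 0.22 without control rat 3 or without control rat 4. Without control rat 2 it was 0.46 (unadjusted p = 0.0344, adjusted p = 1, in limma's fit across all probe sets), and without control rat 5 it was 0.44 (unadjusted p = 0.049, adjusted p = 0.9999). Its nearest genes were Bclaf3 (r = 0.947), Mtmr1 (r = 0.943) and Esf1 (r = 0.941). Of its relatives, Angptl8, a feeding-induced partner in lipase inhibition, had the largest difference (0.67 ± 0.40, unadjusted p = 0.12 in limma's fit across all probe sets), which was 0.37 without mulberry rat 3.

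Pdk4, a kinase that switches off pyruvate dehydrogenase and spares glucose, was measured by a pair of probe sets. The brighter one (1378074_at) had intensities of 3610, 2378, 1893, 1598 and 1314 in mulberry rats 1, 3, 5, 4 and 2, against 3001, 2960, 2874, 2550 and 1300 in control rats 3, 2, 1, 5 and 4. Mulberry rat 1 was the highest of all, the other 4 mulberry rats lay below 4 of the 5 control rats, and control rat 4 was the lowest. The means were 2159 ± 902 in mulberry and 2537 ± 714 in control rats (SD, n = 5 each). The difference was -0.26 ± 0.28 (SE; interval -0.86 to 0.34). It grew to -0.47 without mulberry rat 1 and -0.48 without control rat 4, and shrank to -0.11 without mulberry rat 2.

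The dimmer Pdk4 probe set (1369150_at) differed by -0.13 ± 0.27 and ranged from 354 to 1221 in mulberry and from 503 to 815 in control rats, and its difference turned to 0.035 without mulberry rat 2. Without mulberry rat 1 it was -0.40 (unadjusted p = 0.0431, adjusted p = 0.9999, in limma's fit across all probe sets). Both probe sets gave nearly the same order of rats (r = 0.83, permutation p = 0.00143, adjusted p = 0.00286 over the Pdk4 and Plin2 pairs; rho = 0.93, permutation p = 0.00033), also without mulberry rats 1 and 2 (r = 0.73, exact permutation p = 0.0361). The genes most like the brighter one were Ercc4 (r = 0.902), Efna1 (r = 0.898) and Car5a (r = 0.887).

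Vnn1, a pantetheinase that releases cysteamine and is strongly induced by PPAR-alpha in rodent liver, had intensities of 3491, 3951, 4630, 3008 and 3218 in mulberry rats 1 to 5, against 2507, 3994, 5989, 4590 and 3325 in control rats 1 to 5. All mulberry rats lay between control rat 1 and control rat 3. The difference was -0.11 ± 0.20 (SE; interval -0.55 to 0.32), or 0.040 without control rat 3. Its nearest genes were Prmt7 (r = 0.928), Dok7 (r = 0.921) and Ap4s1 (r = 0.914).

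**Figure D2:**
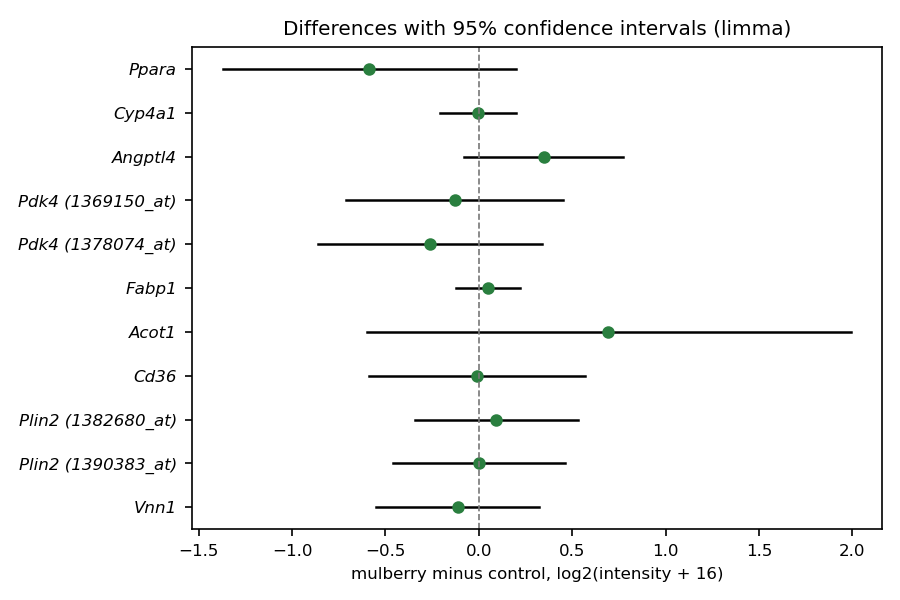
Mulberry minus control difference (log2(intensity + 16), horizontal axis) of each probe set with its 95% confidence interval from limma. Every interval includes 0; those of Fabp1 (-0.12 to 0.22) and Cyp4a1 (-0.21 to 0.20) are the narrowest and that of Acot1 (-0.60 to 1.99) is the widest.

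The intervals differed widely in what they leave room for. Those of Cyp4a1 and Fabp1 spanned 0.865 to 1.15 and 0.920 to 1.17 times the control level. For Ppara the interval ran from 0.386 to 1.15 times, for Angptl4 from 0.948 to 1.71 times and for Acot1 from 0.658 to 3.97 times the control level. The median SE was 0.21 over the 11 probe sets and 0.17 over all probe sets tested.

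The spread between rats was unequal in the groups for several members, a feature picked out after the values were seen. The SD of the log2 values of Acot1 was 0.20 in mulberry and 1.67 in control rats, a ratio of control to mulberry of 8.24. A ratio at least as large was found for 0.113% of all probe sets. Leaving out 1 rat kept this ratio between 5.77 and 11.7. Angptl4 had an SD of 0.17 in mulberry and 0.49 in control rats, and the dimmer Plin2 probe set 0.17 in mulberry and 0.48 in control rats. Vnn1 had 0.25 in mulberry and 0.47 in control rats, and Cyp4a1 0.09 in mulberry and 0.21 in control rats. The opposite held for Ppara, with 0.94 in mulberry and 0.27 in control rats, a ratio of mulberry to control of 3.51 that 2.01% of all probe sets reached and that was 0.713 without mulberry rat 2. The dimmer Pdk4 probe set also had the larger spread in the mulberry group, with an SD of 0.66 in mulberry and 0.27 in control rats, and its ratio of 2.45 was 1.11 without mulberry rat 1. The brighter Plin2 probe set had 0.45 in mulberry and 0.36 in control rats. Of these ratios, only those of Acot1 and Ppara were set against all probe sets. Of the 11 probe sets, 6 had the larger SD in control rats, against 51.5% of all probe sets tested.

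**Figure D3:**
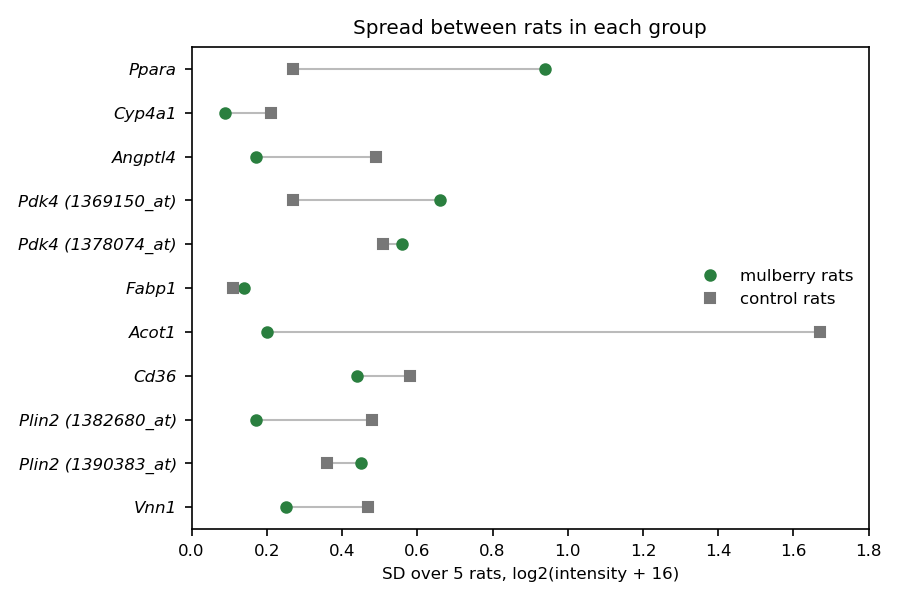
Standard deviation over the 5 rats of each group (log2(intensity + 16), horizontal axis) for the 11 probe sets, mulberry as green circles and control as grey squares. Acot1 lies at 0.20 in mulberry and 1.67 in control rats, and Ppara at 0.94 in mulberry and 0.27 in control rats.

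Some rats held the highest or lowest rank for more than 1 member. Control rat 3 was the highest of the 10 rats for Cyp4a1, Acot1, Cd36 and Vnn1, ranked 2 for Pdk4 and the lowest for Angptl4. Mulberry rat 1 was the highest for Pdk4 and Plin2. Control rat 5 was the highest for Ppara and the lowest for Acot1 and Plin2. The array of control rat 3 had the lowest mean correlation with the other arrays, 0.962, where the others had 0.964 to 0.972, and the highest mean intensity, 847 against 792 to 839 in the others. The part of array differences in these ranks was not tested.

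**Figure D4:**
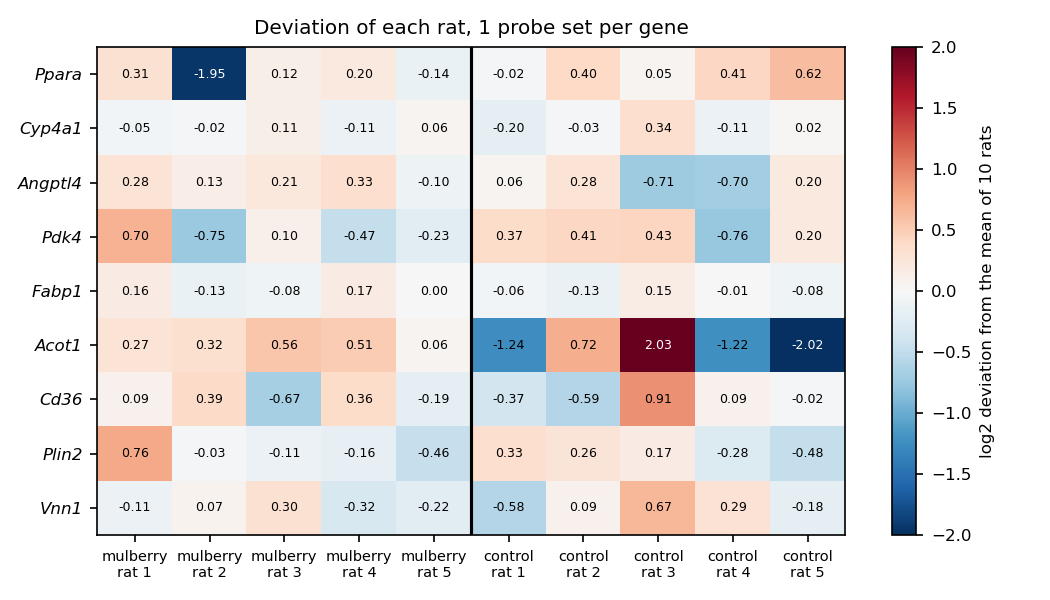
Deviation of each rat from the mean of the 10 rats (log2, colour and printed value) for 1 probe set per gene, with the 5 mulberry rats left and the 5 control rats right of the black line. The strongest colours are Acot1 in control rats 3 (2.03) and 5 (-2.02) and Ppara in mulberry rat 2 (-1.95).

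No pair of members passed a test of correlation across animals. Of the 36 pairs of members, 22 had a positive and 14 a negative correlation over the 10 rats, and 0 passed an adjusted permutation p of 0.05, with 2 at an unadjusted p under 0.05. The pair with the smallest p was Cyp4a1 with Vnn1, at r = 0.75 (permutation p = 0.0128, adjusted p = 0.459) and rho = 0.54 (permutation p = 0.113, adjusted p = 0.943), and r = 0.14 without control rats 1 and 3, so that it rested on these rats. Cyp4a1 with Acot1 had r = 0.64 (permutation p = 0.0468, adjusted p = 0.546) and rho = 0.47 (permutation p = 0.179, adjusted p = 0.943), and r = 0.10 without the same rats. Pdk4 with Plin2 had r = 0.63 (permutation p = 0.051, adjusted p = 0.546) and rho = 0.65 (permutation p = 0.0497, adjusted p = 0.943), and r = 0.75 without control rat 4 and mulberry rat 2. On deviations from the group means, r was 0.76, 0.67 and 0.65 for these pairs.

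Of the receptor's partners and coregulators, none passed the test. Of 16 tested genes of this list, 8 had a higher and 8 a lower mean in mulberry rats, with a median difference of 0.021, against 51.3% higher and a median of 0.0035 over all 10328 genes tested. At an unadjusted limma p under 0.05 there was 1 of 16 (6.25%), against 1.79% of all genes tested. It was Rxrg, the gene of a retinoid X receptor, which differed by 0.26 ± 0.10 (SE, unadjusted p = 0.0233). Rxrg had intensities of 1057, 1085, 1127, 925 and 1160 in mulberry rats 1 to 5, against 826, 944, 972, 883 and 832 in control rats 1 to 5, and 4 of the 5 mulberry rats lay above every control rat. Rxra, the main hepatic partner, was at 0.04 ± 0.20, with -0.04 to 0.22 on leaving out 1 rat, and the mediator subunit gene Med1 at 0.15 ± 0.16. On the lower side were Lpin1, a phosphatidate phosphatase that also acts as a coactivator of PPAR-alpha, at -0.58 ± 0.35 (-0.36 without mulberry rat 3), and Rxrb at -0.19 ± 0.28. The coactivator gene Ppargc1a was at 0.04 ± 0.15.

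Other target genes gave list medians near 0, whose sign turned when single rats were left out. Of 17 mitochondrial and ketogenic targets, 11 had a higher mean in mulberry rats (median 0.024) and 0 reached an unadjusted p under 0.05. They included Slc22a5, a carnitine transporter, at 0.22 ± 0.14, Slc25a20, the mitochondrial carnitine-acylcarnitine carrier, at 0.08 ± 0.095, Acads, a short-chain acyl-CoA dehydrogenase, at -0.10 ± 0.096, and the uncoupling protein gene Ucp2 at -0.30 ± 0.18. Of 11 peroxisomal targets, 6 had a higher mean (median 0.0040) and 0 reached an unadjusted p under 0.05. Among them Hsd17b4 was at 0.13 ± 0.088 and Acox2, a branched-chain acyl-CoA oxidase, at 0.11 ± 0.096, whereas the carnitine acetyltransferase gene Crat was at -0.20 ± 0.15 and Pex11a, a peroxisome division factor, at -0.18 ± 0.22.

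Of 24 lipid transport and storage targets, 14 had a higher mean (median 0.022), 0 passed an adjusted p of 0.05 and 1 (4.17%) reached an unadjusted p under 0.05. That gene was Lipe, the hormone-sensitive lipase, at -0.51 ± 0.23 (unadjusted p = 0.041). Lipe had intensities of 238, 335, 262, 428 and 167 in mulberry rats 1 to 5, against 366, 307, 441, 558 and 354 in control rats 1 to 5, and the groups overlapped. G0s2, an inhibitor of adipose triglyceride lipase, was at 0.59 ± 0.29 with mulberry rat 3 highest at 11288, and at 0.33 without that rat. The hormone gene Fgf21 was at 0.17 ± 0.22 and Txnip at -0.19 ± 0.14. Of 23 tested family relatives of the members, 13 had a higher mean (median 0.014) and 0 reached an unadjusted p under 0.05. The extremes there were Angptl8, the cytochrome gene Cyp4b1 at 0.26 ± 0.25 (0.012 without mulberry rat 4), the fatty acid binding protein gene Fabp5 at -0.37 ± 0.30 (-0.13 without mulberry rat 3) and the kinase gene Pdk2 at -0.14 ± 0.12. Pdk2 had 2 tested probe sets, and the dimmer one differed in the opposite direction.

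The fasting and glucocorticoid list, genes that share fasting control with Pdk4 and Angptl4, had lower means in mulberry rats for 10 of 15 genes and a median of -0.20, and 0 reached an unadjusted p under 0.05. Leaving out 1 rat at a time brought the median to between -0.16 and -0.048, with -0.048 without mulberry rat 1. Igfbp1, an insulin-repressed binding protein of insulin-like growth factors, was at -0.67 ± 0.41, with -0.31 without mulberry rat 3 and -1.06 without mulberry rat 1. It had intensities of 13607, 4945, 1680, 4568 and 3863 in mulberry rats 1 to 5, against 11626, 6845, 7809, 5116 and 6466 in control rats 1 to 5. Mulberry rat 1 was the highest of all and the other 4 mulberry rats lay below every control rat. The transcription factor gene Cebpb was at -0.32 ± 0.17 and Tat, the tyrosine aminotransferase gene, at 0.039 ± 0.23.

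**Figure D5:**
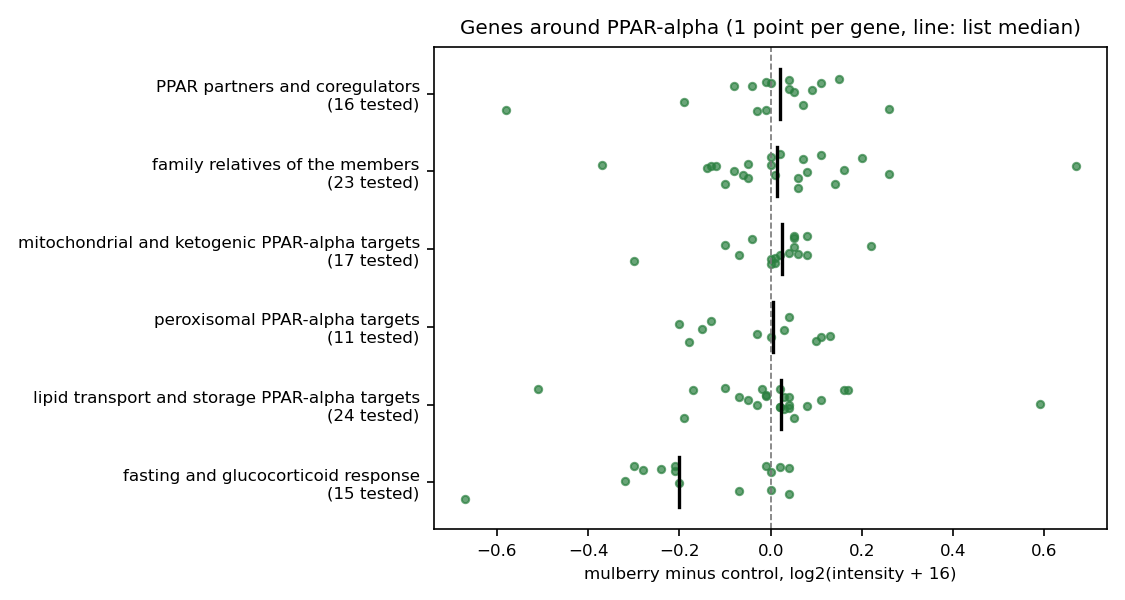
Mulberry minus control difference (log2(intensity + 16), horizontal axis) of every tested gene of the 6 lists around PPAR-alpha, 1 point per gene, with the list median as a black line. The medians of 5 lists lie between 0.0040 and 0.024, and that of the fasting and glucocorticoid list at -0.20.

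The tissue was checked by its markers. All 9 hepatocyte markers on the array were tested, with a summed intensity of 245248 to 293745 in mulberry and 241416 to 279918 in control rats, and all 6 markers of cardiac and skeletal muscle lay under the filter. Correlations between arrays over the tested probe sets lay between 0.953 and 0.982. The median intensity per array was 97.5 to 118, and the number of arrays limits the precision.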

How the data were processed

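Signal intensity was read from the authors' deposited table, 1 linear intensity per probe set and array; the submitters' processing notes name MAS5 and affy, without a version or a role. Its mean after trimming 2% at each end was 500 on every array, so the deposited intensities were used as scaled. Probe sets were named from the platform annotation: 20826 carried 1 symbol, 436 several and 9780 none, and 20758 matched RefSeq genes of GRCr8 by identifier. The log2(intensity + 16) values were fitted with limma 3.58.1 in R 4.3.3 (lmFit, eBayes with a variance trend, two-sided), after leaving out 57 control probe sets and those at or under the 40th percentile of mean log2 value (6.27, or an intensity of 61.1); the code was tested on simulated data. A gene was represented by its brightest tested probe set. Correlations used Python 3.11.15, numpy 2.4.6 and scipy 1.17.1, with two-sided permutation p from 100000 resamples, or all orders below 10 rats. An adjusted limma p is over all probe sets tested; an adjusted p of a correlation is over the 36 pairs of members, the 23 pairs of a member with a relative, or the 2 pairs of probe sets of 1 gene.

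The members, lists and naming rule were chosen with earlier results of these data known. The rule named all members, the 3 genes most correlated with each, and for each list the 2 largest rises, the 2 largest falls and the 2 smallest p. Pairs of a member with a relative, the spread of Acot1, Ppara and Pdk4, the alternatives for Acot2 to Acot4, Rxra and Ppara with Pdk4, and the rats left out of list medians were added after the values were seen. Alternatives were other pseudocounts, filters and normalizations, array weights, no variance trend, a replicate block and leaving out each rat.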

Additional observations from a re-analysis of the deposited data

Results flagged for a closer look

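Of 70 groups of 5 rats checked for a rat standing apart from the rest of its group (gap to the nearest rat over 0.71 of the group's range, both on the log2(intensity + 16) scale), 3 stood out, where chance gives about 1 in 20. In linear intensity, Ppara was at 25.8 in mulberry rat 2, against 130 to 183 in the other mulberry rats. The brighter Pdk4 probe set was at 1300 in control rat 4, against 2550 to 3001 in the other control rats. Txnip was at 3329 in mulberry rat 4, against 2125 to 2406 in the other mulberry rats.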

How the results depend on the processing

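The count of probe sets passing limma's adjusted p of 0.05 was 0 under every alternative run, over all probe sets and among the members, and so was the count of pairs of members passing. Ppara has no value with a filter at the 60th percentile, which leaves it out. The labels number the rats of each group and name no pairing. Deviations of same-numbered rats correlated between -0.33 and 0.10, and 1 of 5 mulberry rats correlated best with its own number. These values cannot settle whether the rats were paired. With the replicate block, 0 probe sets passed, as without it. Array weights turned the sign for Cyp4a1 (0.05), Cd36 (0.11), Vnn1 (0.023) and the Plin2 probe sets 1382680_at (-0.0039) and 1390383_at (0.00073), and quantile normalization did so for Fabp1 (-0.011). Array weights also moved Acot1 to 0.99 and Angptl4 to 0.16. Leaving out 1 rat at a time gave -0.054 to 0.081 for Cyp4a1, -0.16 to 0.22 for Cd36, -0.27 to 0.040 for Vnn1, -0.40 to 0.035 for Pdk4 probe set 1369150_at, -0.033 to 0.25 for Plin2 probe set 1382680_at, -0.19 to 0.11 for 1390383_at, -0.30 to 0.021 for Pex11a, -0.053 to 0.11 for Ppargc1a, -0.33 to 0.058 for Rxrb, -0.089 to 0.29 for Tat, -0.10 to 0.18 for Acot2, -0.10 to 0.11 for Acot3 and -0.04 to 0.22 for Rxra. Shifting arrays to a common median gave -0.026 for Acot2 and -0.014 for Acot3. Of the 24 list genes named by rule, 22 moved by over 1.5 times or turned sign without some rat. The medians of the 5 lists other than the fasting and glucocorticoid list also turned sign, within -0.050 to 0.065. The correlation of Ppara with Pdk4 turned to -0.08 without the 2 farthest rats and lay between -0.00 and 0.69 without single rats. The cause of these turns was not tested. Ppara was at -0.70 with a pseudocount of 1 and -0.40 with 64, so its size depends on the pseudocount.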
